A study of Bos taurus with 6 samples.

Results

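The miR-17, miR-18 and miR-19 seed families were described in the serum extracellular vesicles (EVs) of 6 lactating Holstein cows. The members were chosen by name. They were bta-miR-17-5p, bta-miR-20a, bta-miR-20b, bta-miR-93, bta-miR-106a and bta-miR-106b of the miR-17 seed family, bta-miR-18a of the miR-18 seed family, and bta-miR-19a and bta-miR-19b of the miR-19 seed family. Of these 9 names, 8 had a row among the 706 miRNAs listed, 359 of them known Bos taurus miRNAs and 347 newly predicted. The exception, bta-miR-20b, is only named here. The 8 listed members had 3990 counts over the 6 cows, 0.0372% of the counts of known miRNAs. The miR-17 seed family held 92.2% of them, the miR-19 seed family 7.74% and the miR-18 seed family 1 count.

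Cows were in mid lactation and gave 1 serum sample each on day 30. The control group (n = 3) received a total mixed ration. In the ration of the tested group (n = 3), whole cotton seed and soybean hull replaced part of the alfalfa hay and corn silage. The age of the animals is not given in the sources used here. EVs were bound to an affinity membrane, and each cow gave 1 small RNA library. Levels are given as counts per 1000000 counts of known miRNAs in the same library (CPM). A read of a mature miRNA spans the whole molecule, so levels of miRNAs were compared without scaling to length. How evenly adapter ligation and PCR treated different sequences was not measured. Comparisons between different miRNAs are therefore of counts and may differ from those of molecules in the EVs. The libraries held between 1226928 and 2088249 counts of known miRNAs, with the fewest in tested cow 1. Markers of red blood cells (3 of 3 listed), platelets and vessel wall (4 of 4), white blood cells (4 of 5), liver (1 of 1) and epithelium (6 of 6) had a row in the table, and each marker listed there had counts in every cow. In these samples, fewer EVs of a cell type and fewer copies of a miRNA per EV cannot be told apart.

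A miRNA guides the silencing complex to messenger RNAs mainly through its seed, bases 2 to 8 from its 5′ end, so miRNAs with one seed share many predicted targets. The miR-17, miR-18 and miR-19 families are made from 3 related clusters of hairpins, and each cluster is transcribed as one RNA before the hairpins are cut out. The miR-17-92a cluster is known as oncomiR-1. It promotes proliferation and survival of blood cell precursors, and the cell cycle inhibitor CDKN1A and the transcription factor E2F1 are well studied targets of miR-17. All 9 names matched a gene in the RefSeq annotation of ARS-UCD2.0. The reads had been matched to another assembly, so this annotation was used only for which genes lie together. There MIR17, MIR18A, MIR19A, MIR20A, MIR19B and MIR92A-1 were neighbours within 10 kb, as were MIR106A, MIR18B, MIR20B, MIR19B-2, MIR92A-2 and MIR363. MIR106B, MIR93 and MIR25 lay together inside MCM7, a gene for a subunit of the replicative helicase. The mature bta-miR-19b and the mature bta-miR-92a are each made from a pair of these loci, so their counts cannot be divided between the clusters.

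The sequences are shown because the families are defined by them and because several members differ by 1 base. They are as the authors listed them, written as DNA from the 5′ end, with the seed in capitals.
bta-miR-17-5p: cAAAGTGCttacagtgcaggtagt
bta-miR-106a: aAAAGTGCttacagtgcaggta
bta-miR-20a: tAAAGTGCttatagtgcaggtag
bta-miR-106b: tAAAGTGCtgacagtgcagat
bta-miR-93: cAAAGTGCtgttcgtgcaggta
bta-miR-18a: tAAGGTGCatctagtgcagata
bta-miR-18b: tAAGGTGCatctagtgcagtta
bta-miR-19a: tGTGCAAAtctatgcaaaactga
bta-miR-19b: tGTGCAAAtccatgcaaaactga

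The 5 listed members of the miR-17 seed family carried the seed AAAGTGC and the same base at 15 of the first 21 positions. Counted from 1 at the 5′ end and with the base of bta-miR-17-5p first, bta-miR-106a differed from it by C1A and ended 2 bases earlier. The substitutions to bta-miR-20a were C1T and C12T, those to bta-miR-106b were C1T, T10G and G20A, and those to bta-miR-93 were T10G, A11T, C12T and A13C. The listed miR-19 sequences differed by T11C, with the base of bta-miR-19a first. A search of all 706 listed sequences for the members' seeds found 1 further miRNA, bta-miR-18b of the miR-106a-363 cluster, which differed from bta-miR-18a by A20T. None of the 347 newly predicted sequences had a member's seed, lay inside a member or held one, and 0 were within 2 edits of a member. How the authors assigned reads that matched several of these sequences is not given in the sources used here, so the division of counts between members that differ by 1 or 2 bases is uncertain.

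Detection fell into 2 sets. The miRNAs bta-miR-17-5p, bta-miR-20a, bta-miR-93, bta-miR-106b and bta-miR-19b had counts in all 6 cows. The other listed members had 5 counts or fewer in all. A single count of bta-miR-106a was found in tested cow 3, against 611 counts of its near copy bta-miR-17-5p over the 6 cows. For bta-miR-18a there was 1 count, in tested cow 1. Its relative bta-miR-18b had 37 counts in tested cow 2 and 0 in the other cows. For bta-miR-19a there were 2 counts in tested cow 1, 3 in tested cow 2 and 0 in the others, against 304 counts of bta-miR-19b. Each of these miRNAs thus had counts in 1 or 2 tested cows and in no control cow, and at the counts of the 3 members a difference between the diets was not detectable. Where a miRNA had a count of 0, the depth allowed a level of up to between 1.44 and 2.45 CPM, 3 counts of the known total of the library. These floors and the intervals below cover counting error only, since copies made by PCR are not independent molecules. Each control cow had 5 members with a count, and the tested cows had 7, 6 and 6. With a minimum of 5 counts, all 6 cows had 5. Over all known miRNAs, control cows had 230, 263 and 240 with a count and tested cows 258, 242 and 238, so the groups overlapped.

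The highest member on average was bta-miR-106b, one of the products of the MCM7 locus. Control cows had 130, 181 and 186 counts and tested cows 129, 290 and 173. The control mean was 89.4 ± 4.49 CPM (SD, n = 3) and the tested mean 114.1 ± 36.6 CPM (SD, n = 3). Tested cow 2 stood above the other cows and tested cow 3 below all control cows, so the groups overlapped. Its coefficient of variation (CV, the SD over the mean) was 26.5% over the 6 cows, the lowest among the 5 members with counts in all cows. That order rested on single cows, since bta-miR-20a had the lowest CV without tested cow 1 and bta-miR-93 without tested cow 3.

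Its cluster neighbour bta-miR-93 was counted 71, 180 and 186 times in control cows and 96, 169 and 313 times in tested cows. Its mean level was 76.4 ± 26.2 CPM (SD, n = 3) with the control ration and 106.02 ± 38.4 CPM (SD, n = 3) with the tested one, with control cow 1 lowest and tested cow 3 highest. The ratio of bta-miR-93 to bta-miR-106b counts within a cow ran from 0.546 in control cow 1 (95% exact binomial interval 0.403 to 0.735) to 1.81 in tested cow 3 (1.498 to 2.19). These are the lowest and the highest of the 6 cows, and the intervals hold no variation between animals.

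For bta-miR-20a of the miR-17-92a cluster control cows had 114, 171 and 261 counts, and tested cows 6, 190 and 222. The mean level was 96.8 ± 30.2 CPM (SD, n = 3) for control cows and 70.8 ± 57.1 CPM (SD, n = 3) for tested cows. The lower mean of the tested group came from tested cow 1, with 4.89 CPM (95% exact binomial interval 1.79 to 10.6). All other cows lay between 74.2 and 131.1 CPM, and the 2 remaining tested cows lay inside the range of the control cows.

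The founding member, bta-miR-17-5p, was counted 93, 120 and 75 times in control cows and 22, 207 and 94 times in tested cows. Control cows averaged 52.6 ± 12.96 CPM (SD, n = 3), and tested cows 57.7 ± 47.4 CPM (SD, n = 3). Tested cow 1 was again lowest, at 17.9 CPM (11.2 to 27.1), and tested cow 2 highest, at 110.1 CPM (95.6 to 126.2). The tested cows spanned the whole range of the control cows.

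The miR-19 seed family was represented by bta-miR-19b, with 7, 54 and 80 counts among control cows and 14, 62 and 87 among tested cows. Control cows averaged 23.9 ± 18.01 CPM (SD, n = 3), and tested cows 28.7 ± 15.6 CPM (SD, n = 3). Cow 1 of each group was low, at 4.55 CPM (1.83 to 9.38) in the control group and 11.4 CPM (6.24 to 19.1) in the tested group, and the 4 other cows lay between 26.9 and 41.7 CPM.

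**Figure D1:**
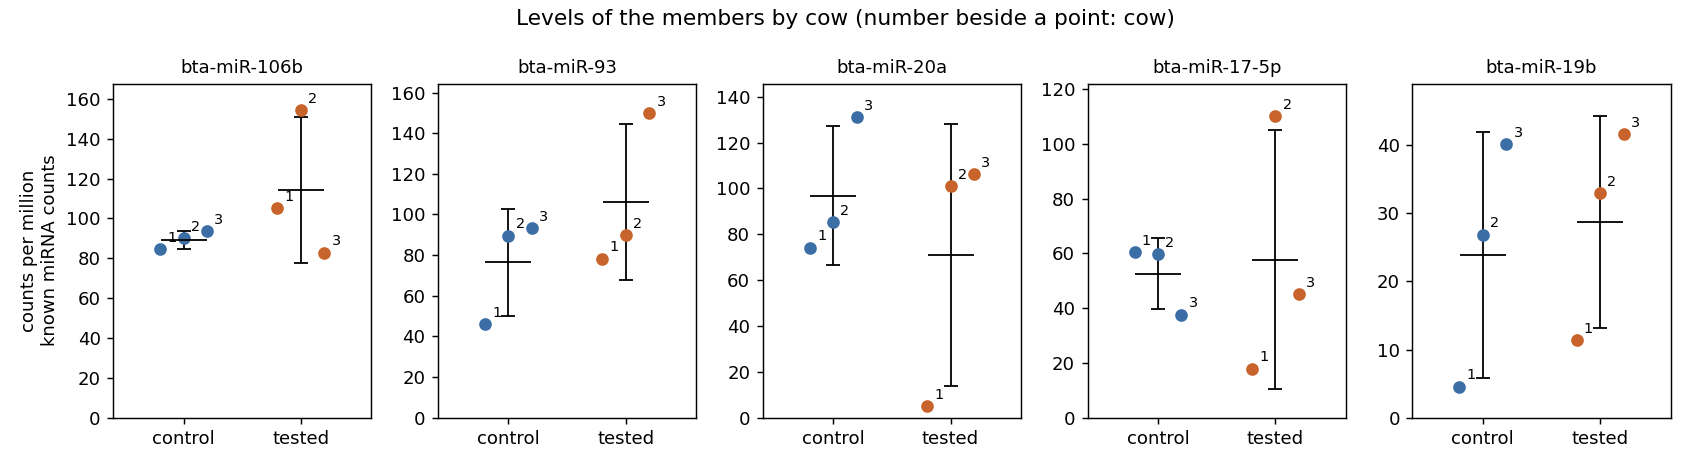
Level of each of the 5 members with counts in all cows, in CPM on a linear axis, for the 3 control and 3 tested cows. Points are cows with their number, and bars are the group mean ± SD. The groups overlap in every panel, and tested cow 1 is lowest for bta-miR-20a, at 4.89, and for bta-miR-17-5p, at 17.9.

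By the mean over the 6 cows the order was bta-miR-106b at 101.7, bta-miR-93 at 91.2, bta-miR-20a at 83.8, bta-miR-17-5p at 55.2 and bta-miR-19b at 26.3 CPM. Among the 359 known miRNAs these means ranked 107, 112, 116, 128 and 153. The 10 pairs of these members were compared within cows on the log2 scale by an exact sign-flip permutation test, two-sided, with 0.03125 as the smallest p that 6 cows allow. In all 6 cows bta-miR-106b was above bta-miR-17-5p, on average 2.07-fold (exact permutation p = 0.03125, adjusted over the 10 pairs 0.104). It was also above bta-miR-19b in 6 of 6 cows, 4.81-fold, and bta-miR-93 was above bta-miR-19b in 6 of 6 cows, 4.17-fold, each at the same exact p and adjusted p. No pair had an adjusted p below 0.05. Neighbours in the order did not differ beyond their spread, with bta-miR-106b above bta-miR-93 in 4 of 6 cows, bta-miR-93 above bta-miR-20a in 3 of 6, bta-miR-20a above bta-miR-17-5p in 4 of 6 and bta-miR-17-5p above bta-miR-19b in 5 of 6.

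Summed over its members, the miR-17 seed family reached 408, 652 and 708 counts among control cows, against 253, 856 and 803 among tested cows. This was 315.2 ± 45.9 CPM (SD, n = 3) against 348.7 ± 128.4 CPM (SD, n = 3), with the lowest and the highest cow both in the tested group. The ratio of the group means was 1.11 by the share of known counts and 0.848 by the RPM values the authors deposited, so its direction depended on the total it was scaled to. It also depended on single cows, with a ratio by the share of known counts of 0.937 without tested cow 2 and 1.33 without tested cow 1. For the miR-19 seed family the levels were 23.9 ± 18.01 CPM (SD, n = 3) and 29.8 ± 14.9 CPM (SD, n = 3), a ratio of 1.25 by the share of known counts and 0.845 by the deposited values. Without control cow 3 this ratio was 1.89, and without control cow 1 it was 0.887. The control cows had no count of the miR-18 seed family member and the tested cows 1, below the floor in both groups, so no fold is given. This leaves out bta-miR-18b, which was not a named member but has the same seed, at 19.7 CPM in tested cow 2. No p was computed for these sums.

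The makeup of the miR-17 seed family differed from cow to cow. The leading member was bta-miR-106b in 4 cows, bta-miR-20a in control cow 3 and bta-miR-93 in tested cow 3. In the 3 control cows bta-miR-106b held 31.9%, 27.8% and 26.3% of the family's counts. In tested cow 1 it held 51.0% (95% exact binomial interval 44.7% to 57.3%) and bta-miR-93 a further 37.9% (31.9% to 44.2%), while bta-miR-20a held 2.37% (0.875% to 5.09%). In the other 5 cows bta-miR-20a held between 22.2% and 36.9%. The share of bta-miR-17-5p ran from 8.70% in tested cow 1 to 24.2% in tested cow 2.

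**Figure D2:**
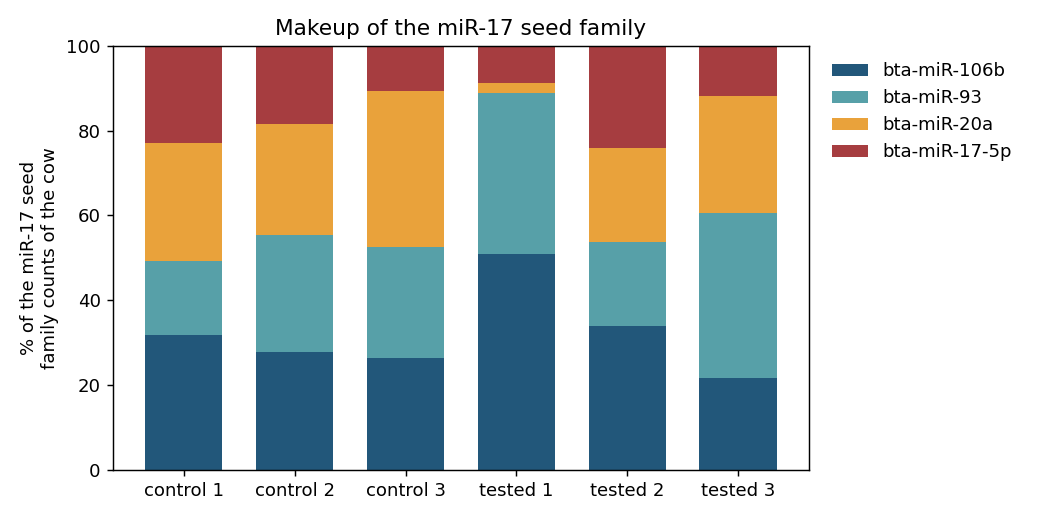
Percentage of the counts of the miR-17 seed family held by each member in each cow, as stacked bars that reach 100%. The single count of bta-miR-106a, in tested cow 3, is too small to draw. In tested cow 1 bta-miR-106b makes up 51.0% and bta-miR-20a 2.37%.

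Along the clusters, the mature miRNAs differed widely in level. The product of MIR92A-1 and MIR92A-2 together, bta-miR-92a, a member of another seed family with the seed ATTGCAC, averaged 13388 ± 1080 CPM (SD, n = 3) for control cows and 10137 ± 2379 CPM (SD, n = 3) for tested cows. Within a cow its counts, which come from both loci, were between 70.8 and 699.9 times those of bta-miR-17-5p, with the lowest ratio in tested cow 2 and the highest in tested cow 1. Against bta-miR-20a the ratio was 2566 in tested cow 1 (95% exact binomial interval 1179 to 6994) and between 77.1 and 168.6 in the other cows. The other arm of the miR-17 hairpin, bta-miR-17-3p, had 1 count over all cows.

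In the miR-106b-25 cluster the gap was smaller. The third product, bta-miR-25, which shares the seed of bta-miR-92a, was at 1212 ± 36.2 CPM (SD, n = 3) and 1291 ± 107.9 CPM (SD, n = 3), with a CV of 6.71% over the 6 cows. Its counts were between 4.94 and 9.58 times the sum of bta-miR-106b and bta-miR-93. In the miR-106a-363 cluster, bta-miR-363 had 12, 8 and 8 control counts against 59, 12 and 21 tested counts, and its highest level, 48.1 CPM, was in tested cow 1. The levels of its neighbours bta-miR-106a and bta-miR-18b, given above, were above 0 in 1 cow each.

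**Figure D3:**
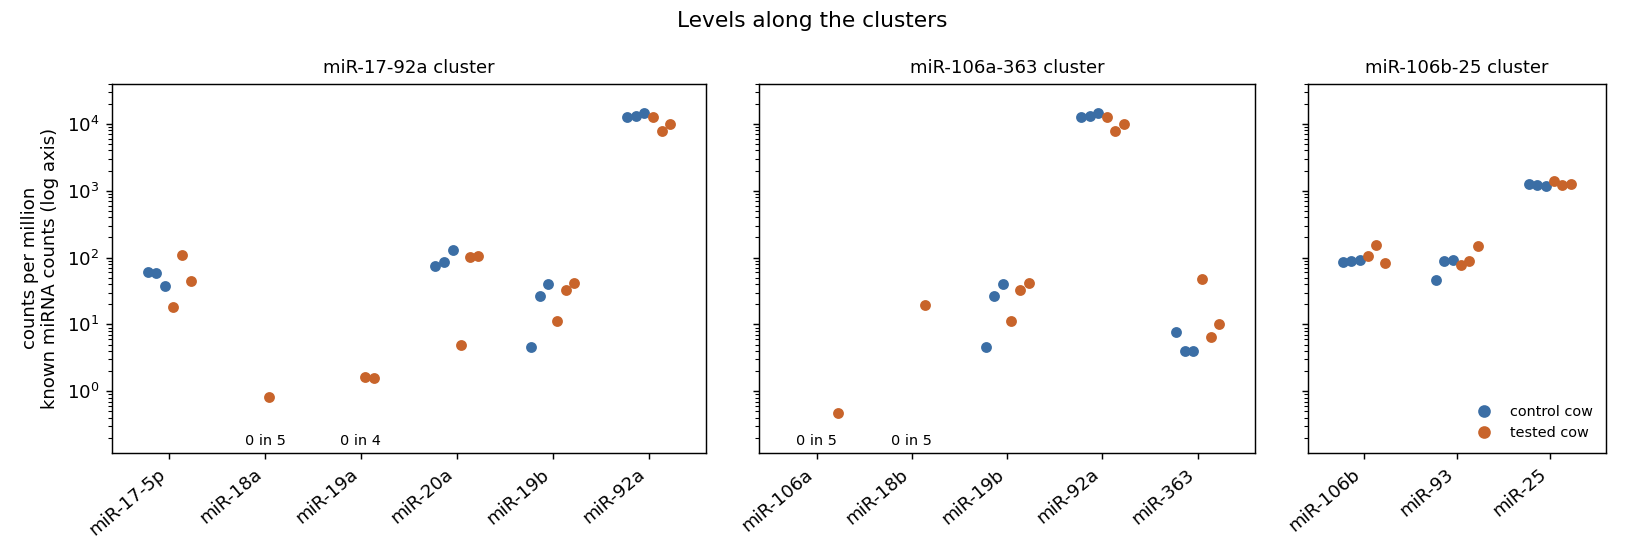
Levels of the miRNAs of each cluster in CPM, on a log axis, with 1 point per cow. A count of 0 cannot be drawn, and the number of cows at 0 is written at the bottom. The points of bta-miR-19b and bta-miR-92a are the same in both clusters that hold them. From bta-miR-20a to bta-miR-92a the mean over the 6 cows goes from 83.8 to 11763 CPM.

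Members placed by the annotation in the miR-17-92a cluster alone (bta-miR-17-5p, bta-miR-18a, bta-miR-19a and bta-miR-20a) were set against bta-miR-106b and bta-miR-93 within each cow. The comparison was chosen after the values were seen. Since the assignment of reads is not given, reads of near copies, such as bta-miR-106a of the miR-106a-363 cluster, could be among their counts. The ratio of summed counts was 1.03, 0.806 and 0.903 for control cows 1 to 3, and 0.138, 0.871 and 0.650 for tested cows 1 to 3. In tested cow 1 it rested on 31 against 225 counts (95% exact binomial interval 0.0914 to 0.201), and the lowest bound of an interval among the 5 other cows was 0.563. In CPM, the members placed in the miR-17-92a cluster alone came to 25.3 in tested cow 1 and 134.7 to 212.8 in the other cows. For bta-miR-106b and bta-miR-93 together the level was 183.4 in tested cow 1 and 130.8 to 244.2 in the other cows.

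Tested cow 1 also had the highest summed level of several lists of markers of other cells. The summed level of the 3 red blood cell miRNAs (bta-miR-451, bta-miR-144 and bta-miR-486) was 59608 CPM in this cow, 28434 in control cow 1 and 8621 to 16300 in the 4 other cows, and no marker of this list was at 0 in any cow. The 4 white blood cell miRNAs summed to 439.3 CPM in tested cow 1, 385.8 in control cow 1 and 123.5 to 238.9 in the others. Most of the sum in tested cow 1 was bta-miR-150, at 326.0 CPM, while bta-miR-155, at 36.7 CPM, was below 4 of the 5 other cows and bta-miR-142-5p, at 65.2 CPM, was below control cow 1, at 95.6 CPM. The liver miRNA bta-miR-122 was at 598.2 and 461.9 CPM in these cows and at 149.9 to 251.9 in the others. Platelet and vessel wall markers, which share bta-miR-223 with the white blood cell list, summed to 329.3 CPM in tested cow 1, 270.1 in tested cow 3 and 18.6 to 111.2 in the others. The markers of this list did not move together, as bta-miR-199a-3p made up 182.6 CPM of the sum in tested cow 1, bta-miR-126-3p was at 63.6 CPM there and 60.5 CPM in control cow 1, and bta-miR-223, at 11.4 CPM, was below 3 of the other cows. The 6 epithelial miRNAs summed to between 74400 and 93931 CPM, a sum carried by bta-miR-200a, bta-miR-200c and bta-miR-141, while bta-miR-205 ran from 1.44 CPM in tested cow 3 to 38.3 CPM in tested cow 1. Tested cow 1 and control cow 1 were likewise the lowest for bta-miR-19b and for the sum of the miR-17 seed family, which was 206.2 and 265.4 CPM in them and 324.6 to 455.5 in the others. Control cow 1, next to tested cow 1 in red blood cell level, had the highest ratio of the clusters, 1.03. The part of these other cells in the levels of the members was not tested.

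**Figure D4:**
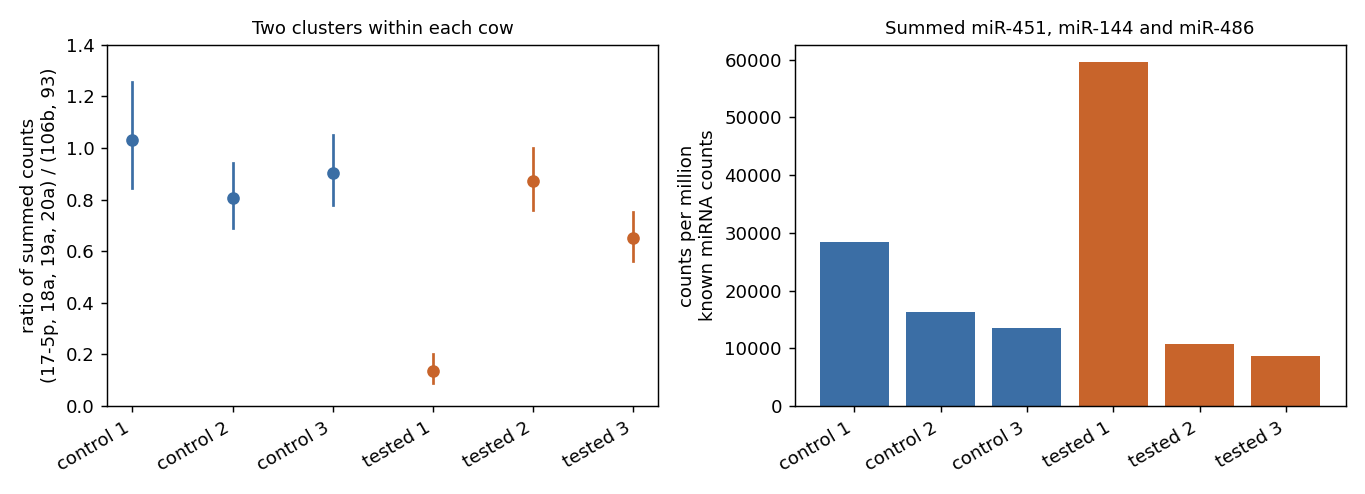
Left, ratio of the summed counts of bta-miR-17-5p, bta-miR-18a, bta-miR-19a and bta-miR-20a to those of bta-miR-106b and bta-miR-93 in each cow, with 95% exact binomial intervals for counting error. Right, summed level of the red blood cell miRNAs in CPM. Tested cow 1 has the lowest ratio, 0.138, and the highest red blood cell level, 59608, while control cow 1 has the highest ratio, 1.03, and the next highest level, 28434.

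To ask whether the diet changed the members, edgeR (quasi-likelihood F test) was fitted over the 623 miRNAs with at least 10 counts in all. The 5 members with counts in every cow entered the fit, and bta-miR-106a, bta-miR-18a and bta-miR-19a fell below this minimum. At the threshold printed in the study, an unadjusted p below 0.05 and an absolute log2 fold change above 1, 0 of the 5 members passed, where 3.21% of all tested miRNAs did. With the unadjusted p alone, 0 of 5 passed, against a background of 4.65%. DESeq2 and limma likewise gave 0 members by either rule. By level CPM, 0 of the 5 had groups that did not overlap, against 11.2% of all tested miRNAs. The members' unadjusted p ran from 0.577 to 0.911, and p adjusted over the 623 miRNAs (Benjamini-Hochberg) from 0.911 to 0.987.

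The estimated changes were small and imprecise. The log2 fold change of tested over control was 0.37 for bta-miR-93 (95% interval -1.12 to 1.87), 0.31 for bta-miR-106b (-1.08 to 1.70) and 0.13 for bta-miR-17-5p (-1.86 to 2.11). Without tested cow 2 the value was -0.86 for bta-miR-17-5p and -0.04 for bta-miR-106b, and for bta-miR-17-5p it was also negative with limma and with the replicate number as a block. For bta-miR-20a it was -0.54 (-2.56 to 1.49), and without tested cow 1 it was 0.01. For bta-miR-19b it was 0.15 (-2.64 to 2.93), which turned to -0.35 without control cow 1. These intervals reach a change of more than 2-fold in each direction, so a change of that size was not excluded with 3 cows per group. The median absolute log2 fold change was 0.31 over the 5 members and 1.013 over all 623 miRNAs, many of which had few counts. The median signed log2 fold change was 0.15 and 0.07. Single members compared by share gave exact permutation p-values of 0.4 for bta-miR-106b, 0.5 for bta-miR-93, 0.7 for bta-miR-20a and bta-miR-19b and 0.9 for bta-miR-17-5p, where 0.1 is the smallest that 3 cows against 3 allow.

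Among the partners in the clusters, bta-miR-92a had a log2 fold change of -0.47 (95% interval -0.89 to -0.06, unadjusted edgeR p of 0.0287, adjusted p = 0.448). It was below the fold threshold, and it passed the rule of an unadjusted p alone. Its log2 fold change was negative in all 16 alternatives, and its unadjusted p was below 0.05 in 11 of them. The edgeR p ranged from 0.00393 without tested cow 1 to 0.111 without control cow 3. With DESeq2 it was likewise above 0.05, as it was when control cow 2 or either of tested cows 2 and 3 was left out. The log2 fold change was 0.03 for bta-miR-25 (-0.56 to 0.62) and 1.97 for bta-miR-363 (-1.81 to 5.75), and 0.57 for bta-miR-363 without tested cow 1. Neither these nor bta-miR-18b, whose counts came from 1 cow, passed the threshold with the fold change. Differences between the changes of members and partners were not tested.

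**Figure D5:**
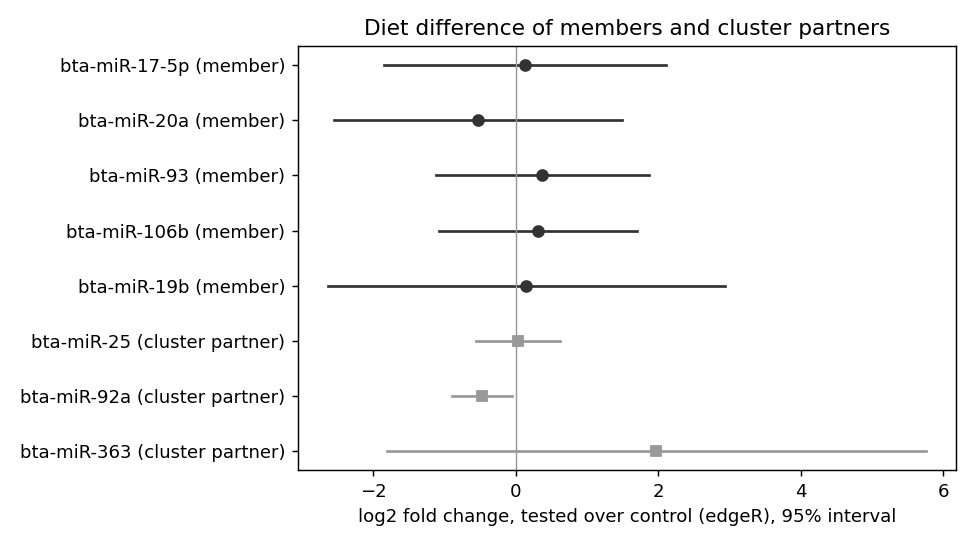
Log2 fold change of tested over control from edgeR with its 95% interval for the 5 members tested (circles) and 3 cluster partners (squares). The intervals of all 5 members include 0, and that of bta-miR-92a runs from -0.89 to -0.06.

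The variation between cows can be set beside that of the other known miRNAs. The CV over the 6 cows was 26.5% for bta-miR-106b, 36.8% for bta-miR-93, 51.7% for bta-miR-20a, 56.6% for bta-miR-17-5p and 58.2% for bta-miR-19b. The 72 known miRNAs with a mean level of 20 to 200 CPM, a window chosen after the values were seen, had a median CV of 56.9%, ranging from 9.40% to 135.2%. From the lowest CV in this window, bta-miR-106b ranked 6, bta-miR-93 ranked 15, bta-miR-20a 30, bta-miR-17-5p 34 and bta-miR-19b 39. These CVs and their order depended on single cows. Without tested cow 1 the CV of bta-miR-20a was 21.9%, below the 29.8% of bta-miR-106b and the 39.3% of bta-miR-93, and bta-miR-20a ranked 4 among the 71 miRNAs then in the window. Without tested cow 2 the CV of bta-miR-106b was 9.72% and that of bta-miR-17-5p 39.9%, below the 41.1% of bta-miR-93. Without tested cow 3 the CV of bta-miR-93 was 24.5%, below the 26.8% of bta-miR-106b.

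The profile of the summed miR-17 seed family over the 6 cows was compared with those of 308 other known miRNAs, as the root mean square difference of mean-centred log2(CPM + 1) values. The nearest were bta-miR-345-5p at 0.144, bta-miR-29a at 0.164 and bta-miR-181b at 0.181. These differences are over 6 libraries with shared totals and are a description only. These 3 were picked as the smallest differences. The family's own members were at 0.383 for bta-miR-106b, 0.429 for bta-miR-93, 0.549 for bta-miR-17-5p and 1.25 for bta-miR-20a.

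A shifted form of the miR-17 seed, AAGTGC within the first 9 bases, was carried by 3 further known miRNAs, bta-miR-302b, bta-miR-302c and bta-miR-302d, which belong to a family known from embryonic stem cells. They are shown for the shift, with bases 2 to 8 in capitals.
bta-miR-302b: tAAGTGCTtccatgttttagtag
bta-miR-302d: tAAGTGCTtccatgttttagt

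Control cows had 11, 6 and 0 counts of bta-miR-302b, and tested cows 39, 20 and 58. The groups did not overlap, as for 11.2% of all tested miRNAs. Control cows averaged 3.38 ± 3.59 CPM (SD, n = 3) and tested cows 23.4 ± 11.2 CPM (SD, n = 3), with an exact permutation p of 0.1. The edgeR log2 fold change of 2.75 (95% interval -1.46 to 6.97) did not pass, with an unadjusted p of 0.181. With 1 cow left out in turn it ran from 2.17 without control cow 3 to 3.83 without control cow 1. For bta-miR-302d there were 49 counts in tested cow 3 and 0 in the other cows, and for bta-miR-302c 1 count in tested cow 1. The listed sequence of bta-miR-302d lies inside that of bta-miR-302b, so reads of one could be counted as the other.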

How the data were processed

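Small RNAs of serum EVs were sequenced from 3 control and 3 tested cows. The authors kept trimmed reads, matched them to the bovine genome, named known miRNAs from miRBase and predicted others with miRDeep2. Cutadapt 1.14, Bowtie and assembly ARS-UCD1.2 stand in the submitters' processing notes. The authors deposited counts without normalization, and the counting tool is not given in the sources used here. A second table, deposited as TPM, holds RPM values, each the deposited count divided by 1 number per library, and columns of the authors' own comparison that were not used. One more table, their list of differently expressed miRNAs, was not used.

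Levels were counts per 1000000 known (bta-) miRNA counts (CPM). Diets were compared in edgeR 4.0.16 under R 4.3.3 (TMM factors, estimateDisp, glmQLFit, glmQLFTest at defaults). Standard errors and 95% intervals were derived from its F statistic. Intervals for counts are Clopper-Pearson. Alternatives were limma 3.58.1 on log2(CPM + 1) with CPM over all miRNA counts, DESeq2 1.42.0, other factors (RLE, none), other filters (none, filterByExpr), a fit of the known miRNAs alone, robust estimation, a prior count of 1, the replicate number as a block, each cow left out (for the CVs, chosen after seeing the data), other totals for shares, count minimums of 2, 5 and 10, and libraries thinned to 1226928 counts (mean of 100 draws). The fits were tested on simulated data. Python 3.11.15, NumPy 2.4.6, pandas 2.3.3, SciPy 1.17.1 and Matplotlib 3.10.9 were used.

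Named were the members, miRNAs sharing their seeds or the motif AAGTGC, their cluster partners, the 3 miRNAs nearest in profile, and marker lists. The members and lists were chosen with earlier results of these data known. The labels name separate cows, 1 library each.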

Additional observations from a re-analysis of the deposited data

How the results depend on the processing

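In all 16 alternatives, cows left out included, 0 members passed the threshold and 0 had an unadjusted p below 0.05. Directions were less settled, as 11 of 172 values of single miRNAs changed sign, none past the threshold. For bta-miR-17-5p the log2 fold change was -0.25 with limma, and -0.24 with the replicate number as a block. Leaving out 1 cow in turn gave -0.86 (without tested cow 2) to 0.55 for bta-miR-17-5p, -0.98 to 0.01 (0.013 without tested cow 1) for bta-miR-20a, -0.043 (without tested cow 2) to 0.56 for bta-miR-106b, -0.35 to 0.84 for bta-miR-19b (-0.35 without control cow 1, -0.04 without tested cow 2, -0.11 without tested cow 3) and -0.042 (without tested cow 1) to 0.12 for bta-miR-25. With DESeq2 and with RLE factors, bta-miR-25 was at -0.041 in each case. With 1 cow left out, the ratio of family shares ran from 0.937 to 1.33 for the miR-17 seed family. For the miR-19 seed family it ran from 0.887 to 1.89.

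Replicate numbers do not mark shared animals, and deviations of same-numbered cows correlated at 0.116, 0.04 and 0.055 across 312 known miRNAs, so the block changed no call and is given for completeness. Depth limits the rare members most: a count of 0 allowed up to 2.45 CPM.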
